A study of Homo sapiens with 15 samples.

Results

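The genes described here are the enzymes that attach ubiquitin to proteins and the largest family of proteases that take it off, measured in Caco-2 cells, an established line from a human colon carcinoma that resembles small-intestinal enterocytes once it has been confluent for some time. They were chosen by symbol: names beginning with PSMA, PSMB, PSMC, PSMD or PSME (proteasome subunits), UBA plus a digit (E1 activating enzymes), UBE2 (E2 conjugating enzymes) or USP plus a digit (ubiquitin-specific proteases). Of 89 symbols that met these prefixes, 6 antisense transcripts, 6 pseudogenes and 1 divergent noncoding transcript were left out. The 76 members that remained, of 14884 named genes, were 4 E1 enzymes, 23 E2 enzymes, 47 USP genes and 2 genes that share only the prefix. Those 2 are PSMC3IP, a partner of the recombinases of meiosis, and USP6NL, a regulator of Rab GTPases. None of the 43 proteasome subunit symbols that RefSeq lists under PSMA to PSME was among the 14884 names, so proteasome subunits are not analysed here and the results concern ubiquitin enzymes. The names covered 4 of the 6 E1, 23 of the 36 E2 and 44 of the 51 USP symbols of RefSeq.

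Ubiquitin is a small protein that marks other proteins. An E1 enzyme activates it with ATP, an E2 enzyme carries it and, with an E3 ligase, attaches it to a target singly or as a chain. Chains joined through 1 lysine of ubiquitin send proteins to the proteasome, while chains joined through another serve in signalling and DNA repair. USP enzymes cut ubiquitin off again. Related E1 and E2 enzymes handle ubiquitin-like proteins such as NEDD8, which switches on cullin ligases, and ISG15, which interferon induces. In the intestinal epithelium the ubiquitin system is known for its part in inflammatory signalling below the endotoxin receptor and in the turnover of cell cycle proteins.

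There were 3 groups of 5 arrays. Control cells were untreated. LPS cells received lipopolysaccharide of the E. coli K12 strain, a ligand of the receptor TLR4, at 1 µg/mL for 48 h. LPS+RSV cells were given 50 µM trans-resveratrol, a plant polyphenol, 1 h ahead of the same LPS exposure. All cells were used 15 to 19 days after seeding, and the labels give neither the day of each array nor whether control and LPS cells received the ethanol that carried resveratrol. There was no group with resveratrol alone. Replicates are numbered without a statement that they were separate cultures, so p-values here measure the spread between these arrays, which may be technical. The study's title concerns a possible anti-lipogenic action of resveratrol in endotoxin-stimulated enterocytes; the ubiquitin enzymes are described here across its 3 comparisons.

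Values are log2 expression as deposited, 1 per array and gene, so a difference of 1 is a 2-fold change. Each symbol was read from its brightest row, and levels of different genes, which come from different probes, are not set against each other. Array medians lay between 5.49 and 5.54, and pairs of arrays correlated between 0.922 and 0.994 over genes. The array least like the rest was LPS+RSV replicate 1, at a mean correlation of 0.946. A cell division score, the mean deviation of 34 proliferation genes that are not members, was spread within every group, over -1.05 to 0.50 in control arrays, -0.03 to 1.02 in LPS arrays and -0.92 to 0.48 in LPS+RSV arrays. Of 12 enterocyte markers, 8 were named and all of these lay above the detection filter on 15 arrays. Among them, VIL1 of the brush border had group means of 10.87 to 11.04 and KRT20 of 5.63 to 6.80. Of 9 fibroblast and immune markers, 2 were named, CD14 and PECAM1, with group means between 5.60 and 5.86. Both also lay above the filter on 15 arrays, so passing it does not set the 2 lists apart.

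Of the 76 members, 70 passed the filter, which asked for a value above the 40th percentile of an array's rows on at least 5 of 15 arrays. They were 4 E1, 22 E2, 42 USP and the 2 prefix-only genes. UBE2U, USP17L15, USP26, USP29, USP44 and USP50 reached that level on 0 arrays. USP17L10 and USP6 each reached it on 7 of 15. USP17L10 and USP17L12 belong to a multigene family of near-identical copies whose signal a probe may not separate. The spread between arrays of a group was small for most members, with a median SD of 0.14 against 0.16 over all genes tested. It was lowest for USP22, a subunit of the SAGA coactivator (0.06), and highest for UBE2T (0.63).

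No member was called at a limma adjusted p under 0.05 in any of the 3 comparisons. Few genes of any kind were: of 11804, the called share was 0.0254% in LPS against control, 0.0424% between LPS+RSV and LPS, and 0% between LPS+RSV and control. What the members showed was a small tilt toward lower values in LPS+RSV. Against LPS, 50 of 70 members lay lower and 20 higher, where 47.9% of all genes lay lower and 52.1% higher. Their median difference was -0.08 on the log2 scale, beside 0.01 over all genes. Against control, 49 lay lower and 21 higher, where 44.2% of all genes lay lower and 55.8% higher, and the medians were -0.06 and 0.02. In LPS against control the split was 39 higher to 31 lower, where 52.7% of all genes lay higher, with medians of 0.02 and 0.01. With the cell division score as a covariate the tilt was smaller: 40 lay lower and 30 higher than LPS, and 44 lower and 26 higher than control, with a median of -0.02 in both. The comparisons share arrays, so that the LPS+RSV arrays stand in both of the tilted ones.

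At an unadjusted limma p under 0.05 the members divided in the same way. Relative to LPS, 20 members were lower in LPS+RSV, 28.6% of the 70, where 10.5% of all genes were, and 3 were higher (background 8.08%); both directions together made 18.6% of all genes. Relative to control, 14 were lower in LPS+RSV, where 6.4% of all genes were, and 1 was higher (background 4.09%). LPS alone gave 3 higher and 2 lower than control, 5 of 70, where 4.62% and 3.26% of all genes, 7.88% together, passed, so that this share was near the background. The USP class, which made up 42 of the 70 tested members, held 14 of the 20 lower members against LPS and 11 of the 14 against control. That class had 33.3% and 26.2% of its genes lower in this way, beside 28.6% and 20.0% of all members. Its median difference was -0.10 in both, that of the E1 class -0.15 and -0.16, and that of the E2 class -0.05 and -0.01.

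The count of 20 moved when the cell division score was a covariate and when arrays were left out. The score had means of -0.12 in control, 0.44 in LPS and -0.32 in LPS+RSV. As it differed between groups, the covariate can also take out part of a treatment difference. With the cell division score as a covariate it was 6, all of them among the 20, where 5.87% of all genes were lower in that fit, and 5 members were then higher, where 5.79% were. Both of those shares were near their background. Without LPS replicates 1 and 2 the count was 12, of which 11 were shared (7.38% of all genes), and without LPS+RSV replicate 1 it was 17, of which 16 were shared (8.02%). The count of 14 against control was 9 without LPS+RSV replicate 1 (3.54% of all genes), 7 without control replicate 1 (3.58%) and 9 without LPS+RSV replicate 5 (5.19%). It was 8 with array weights (3.8%) and 9 in a fit to those groups alone (4.33%). The fit with the cell division score as a covariate gave 13, where 7.3% of all genes were lower. The 3 higher and 2 lower members of LPS against control became 1 to 5 and 1 to 3 with single arrays left out. With the score as a covariate they became 1 and 9, where 8.52% and 7.6% of all genes passed. In bulk cultures fewer cells of a kind and less RNA per cell cannot be told apart.

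**Figure D1:**
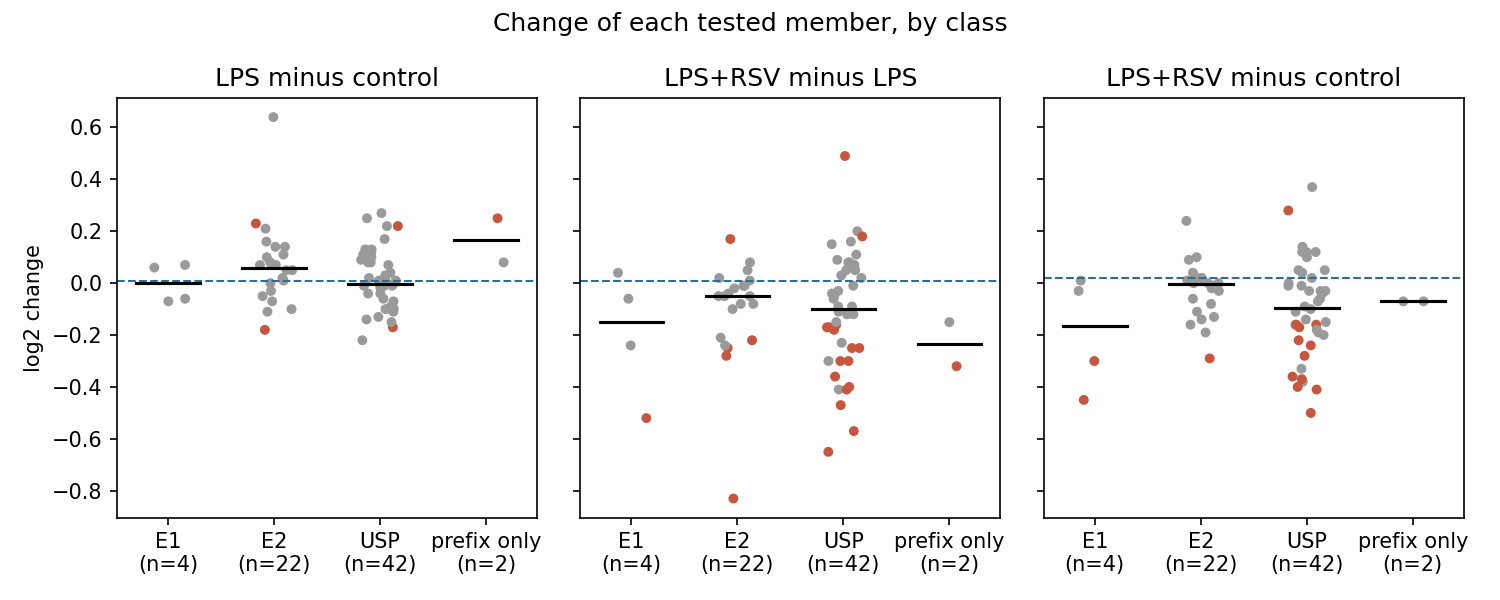
Log2 difference of each tested member (dots), by class (E1 n = 4, E2 n = 22, USP n = 42, prefix only n = 2), in the 3 comparisons; red dots have an unadjusted limma p under 0.05, black bars are class medians and the dashed line is the median of all genes tested. In LPS+RSV against LPS the USP median sat at -0.10 and 14 USP genes lay below 0 in red, with USP2 alone near 0.49 at the top.

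The E1 enzymes differed most from each other in LPS+RSV. UBA6, a second E1 for ubiquitin that also activates FAT10, had values of 9.31, 9.22, 9.03, 8.95 and 8.90 in control, 9.08, 9.32, 9.0, 9.17 and 9.13 in LPS, and 7.74, 9.02, 8.86, 8.76 and 8.75 in LPS+RSV. Replicate 1 of LPS+RSV lay far below every other array, 3 of the other 4 also lay below every control and LPS array, and replicate 2 lay within both ranges. The difference from LPS was -0.52 ± 0.18 (SE, limma adjusted p = 0.17) and from control -0.45 ± 0.18 (adjusted p = 0.464). Without LPS+RSV replicate 1 these were -0.29 and -0.23, and with the cell division score as a covariate -0.31 and -0.40. UBA3, the catalytic subunit of the E1 for NEDD8, shared this shape, with 7.99 in LPS+RSV replicate 1 and 8.45 to 8.92 in the other 4. Its control arrays lay between 8.71 and 8.96 and its LPS arrays between 8.65 and 8.88. Its differences were -0.24 ± 0.13 from LPS (adjusted p = 0.338) and -0.30 ± 0.13 from control (adjusted p = 0.464), or -0.10 and -0.16 without that array. With the cell division score as a covariate they were -0.06 and -0.25. UBA1, the main E1 for ubiquitin, varied little, with group means of 10.00 ± 0.11 in control, 9.92 ± 0.08 in LPS and 9.96 ± 0.09 in LPS+RSV (SD, n = 5 arrays each). LPS minus control was -0.07 ± 0.07 for UBA1 (limma adjusted p = 0.858), with a 95% confidence interval of -0.22 to 0.07.

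Among E2 enzymes, UBE2K was the member of lowest p below LPS. UBE2K builds chains of the kind that lead to the proteasome. It read 10.14, 10.07, 9.94, 9.89 and 9.82 in control, 10.12, 10.08, 9.98, 10.28 and 10.12 in LPS, and 9.67, 9.97, 9.92, 9.77 and 9.87 in LPS+RSV. Every LPS+RSV array lay below every LPS array, while control spanned both. The difference was -0.28 ± 0.08 (limma adjusted p = 0.133), and it was -0.15 with the cell division score as a covariate (adjusted p = 0.445). Against control it was -0.13 ± 0.08 (adjusted p = 0.522).

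UBE2E3, an E2 that shuttles into the nucleus, was the E2 of lowest p above control in LPS. Its values were 6.91, 6.99, 6.61, 6.70 and 6.67 in control, 7.18, 7.18, 6.88, 6.93 and 6.90 in LPS, and 6.76, 6.97, 6.68, 6.80 and 6.75 in LPS+RSV. LPS replicates 1 and 2 lay above all other arrays, and the other 3 LPS arrays fell among the control values. The difference was 0.23 ± 0.09 (limma adjusted p = 0.554) from control, and LPS+RSV minus LPS was -0.22 ± 0.09 (adjusted p = 0.22). Without LPS replicates 1 and 2 these were 0.12 and -0.11.

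UBE2QL1, an E2-like protein, went the other way. It read 5.63, 5.61, 5.91, 5.79 and 5.62 in control, 5.38, 5.59, 5.60, 5.57 and 5.51 in LPS, and 5.91, 5.69, 5.61, 5.64 and 5.67 in LPS+RSV. All LPS arrays lay below all arrays of both other groups, narrowly at the nearest, at values close to the filter level of 5.03 to 5.09. LPS minus control was -0.18 ± 0.08 (limma adjusted p = 0.587) and LPS+RSV minus LPS 0.17 ± 0.08 (adjusted p = 0.256).

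UBE2N, which makes the signalling type of chain together with UBE2V1 or UBE2V2, was the E2 of lowest p below control in LPS+RSV, at -0.29 ± 0.13 (limma adjusted p = 0.475). The difference was carried in good part by LPS+RSV replicate 1 at 5.91, where the other 4 read 6.42 to 6.72 and control 6.45 to 6.92; without that array it was -0.15. UBE2S, which lengthens chains for the anaphase-promoting complex, differed by 0.21 ± 0.14 in LPS against control (adjusted p = 0.782) and by -0.24 ± 0.14 in LPS+RSV against LPS (adjusted p = 0.385), and its groups overlapped. The first was 0.11 without control replicate 5, and the second -0.14 without LPS+RSV replicate 4; with the cell division score as a covariate they were 0.12 and -0.11. The other E2 enzymes differed by between -0.11 and 0.14 in LPS against control, apart from UBE2L6 and UBE2T, which are described below.

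Among the USP genes, USP2 came nearest to the threshold. USP2 removes ubiquitin from cyclin D1 and MDM2, and its transcript is known to follow the circadian clock in several tissues. It read 6.78, 6.83, 6.85, 7.15 and 6.80 in control, 6.81, 6.63, 6.72, 6.38 and 6.78 in LPS, and 7.43, 6.97, 6.91, 7.18 and 7.29 in LPS+RSV. Every LPS+RSV array lay above every LPS array, and 3 of the 5 lay above all control arrays. The means were 6.88 ± 0.15, 6.67 ± 0.17 and 7.16 ± 0.22 (SD, n = 5 each). LPS+RSV was 1.41-fold LPS, a log2 difference of 0.49 ± 0.11 with a 95% confidence interval of 0.26 to 0.73 (limma adjusted p = 0.0756). It passed the threshold only without LPS+RSV replicate 2, at an adjusted p = 0.0446, and over 27 alternatives the adjusted p ran from 0.0446 to 0.313. In the fit without that array 1.03% of all genes were called, against 0.0424% in the main fit. A dimmer row for USP2, with a mean of 6.45, differed by 0.03 in the same comparison, so the rows disagree, and their average differed by 0.26. With the cell division score as a covariate the difference was 0.38 (adjusted p = 0.205). Against control the difference was 0.28 ± 0.11 (adjusted p = 0.464).

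USP14 sits on the proteasome and trims chains from proteins about to be degraded. Its values were 10.24, 10.22, 10.00, 10.22 and 10.01 in control, 10.24, 10.45, 10.37, 10.33 and 10.38 in LPS, and 10.19, 10.20, 10.09, 10.13 and 9.91 in LPS+RSV. The LPS arrays stood above both other groups, although the lowest LPS array and the highest control array print the same value. LPS minus control was 0.22 ± 0.07 (limma adjusted p = 0.434), LPS+RSV minus LPS -0.25 ± 0.07 (adjusted p = 0.138), and LPS+RSV minus control -0.03 ± 0.07. As the first 2 share the LPS arrays, their opposite signs are not separate observations. The second was -0.18 with the cell division score as a covariate (adjusted p = 0.406).

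USP38 was the USP gene of lowest p below LPS. It read 8.11, 8.21, 8.15, 8.12 and 8.20 in control, 8.60, 8.62, 8.13, 8.31 and 8.23 in LPS, and 7.61, 8.05, 8.04, 8.0 and 8.16 in LPS+RSV. Control arrays were tight, LPS replicates 1 and 2 were high and LPS+RSV replicate 1 was low. LPS+RSV minus LPS was -0.41 ± 0.11 (limma adjusted p = 0.127). It was -0.32 without LPS+RSV replicate 1, -0.25 without LPS replicates 1 and 2, and -0.42 with the cell division score as a covariate.

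USP53, a protein of tight junctions long classed as an inactive protease, is named here after its values were seen. Its LPS+RSV arrays read 6.84, 7.68, 7.82, 7.45 and 7.36, against 8.10, 8.22, 7.59, 8.14 and 7.96 in LPS and 8.07, 8.12, 7.89, 7.88 and 7.69 in control. A single LPS array and the control array of replicate 5 lay within the range of LPS+RSV. The differences were -0.57 ± 0.16 from LPS (limma adjusted p = 0.127) and -0.50 ± 0.16 from control (adjusted p = 0.464), or -0.43 and -0.35 without LPS+RSV replicate 1. The difference from LPS was -0.35 with the cell division score as a covariate.

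**Figure D2:**
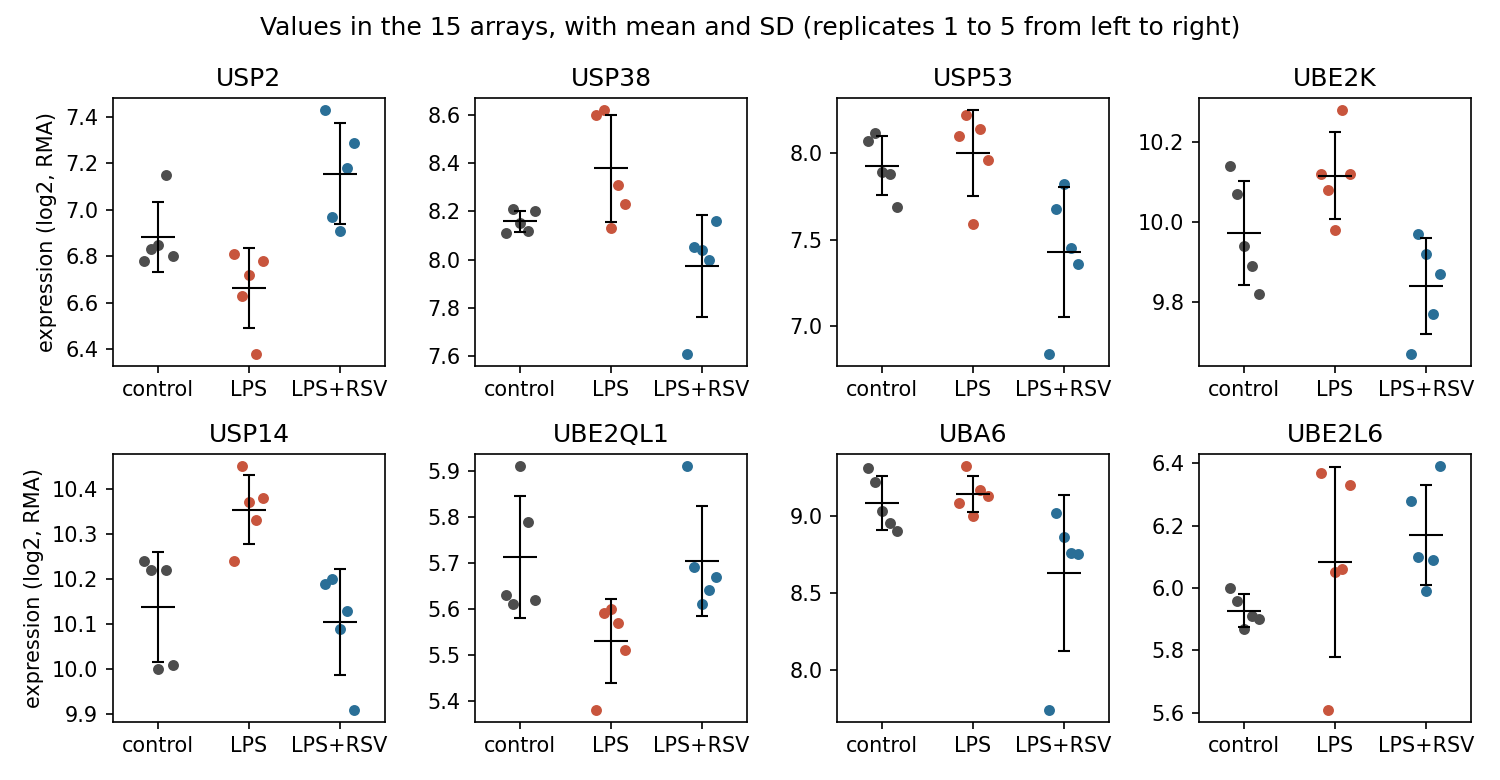
Log2 expression of 8 members on the 15 arrays, 5 per group, with replicates 1 to 5 from left to right and the group mean and SD as bars. The LPS+RSV arrays of USP2 (6.91 to 7.43) lie above its LPS arrays (6.38 to 6.81), those of UBE2K lie below, and LPS+RSV replicate 1 is the low point of UBA6 at 7.74 and of USP38 at 7.61.

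Counts of members whose groups did not overlap were read against the same count over all genes. Between LPS+RSV and LPS they were 8 of 70, where 2.8% of all genes were separate. USP2, USP21 and UBE2QL1 were the 3 higher (background 1.41%) and UBE2K, USP14, USP24, USP31 and PSMC3IP the 5 lower (background 1.39%). Between LPS+RSV and control they were 7, where 1.72% of all genes were separate. USP5 was the 1 higher (background 0.627%), and USP15, USP24, USP25, USP31, USP34 and USP47 were the 6 lower (background 1.09%). Between LPS and control they were 2, where 2.21% of all genes were separate: USP14 was higher (background 1.08%) and UBE2QL1 lower (background 1.13%). USP21, USP24, USP31, USP5, USP15, USP34 and USP47 are named here after their values were seen.

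USP25, the USP gene of lowest p below control in LPS+RSV, was lowest in LPS+RSV and intermediate in LPS. It read 9.33, 9.32, 9.28, 9.31 and 9.21 in control, 9.24, 9.21, 9.11, 9.16 and 9.18 in LPS, and 8.72, 9.07, 9.18, 9.07 and 9.01 in LPS+RSV. LPS+RSV minus control was -0.28 ± 0.08 (limma adjusted p = 0.464), and -0.21 without LPS+RSV replicate 1.

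USP34, known for stabilising axin in Wnt signalling, read 9.48, 10.30, 10.33, 10.15 and 9.98 in LPS+RSV and 10.34 to 10.53 in control, a difference of -0.40 ± 0.12 (adjusted p = 0.464). USP47, a protease that acts on DNA polymerase beta, read 8.49 to 9.38 in LPS+RSV and 9.39 to 9.56 in control, at -0.36 ± 0.13. Both were lowest in LPS+RSV replicate 1, and without it the differences were -0.26 and -0.20. USP24 and USP31 were also lowest in that array, but their differences changed less without it. USP24 read 8.76 to 8.91 in LPS+RSV against 8.97 to 9.11 in control and 8.96 to 9.17 in LPS. Its difference from control was -0.16, and -0.13 without that array, and its difference from LPS was -0.18, and -0.15 without it. USP31 read 7.13 to 7.20 in LPS+RSV against 7.26 to 7.47 in control and 7.20 to 7.46 in LPS. For USP31 the difference from LPS was -0.17 ± 0.06 (limma adjusted p = 0.188), and -0.16 without LPS+RSV replicate 1. USP5, which recycles unanchored ubiquitin chains, read 8.71 to 8.93 in LPS+RSV and 8.57 to 8.69 in control, a difference of 0.14 ± 0.07 (adjusted p = 0.482).

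USP7, the protease that stabilises MDM2 and p53, differed by 0.02 ± 0.07 in LPS against control (limma adjusted p = 0.974) and by -0.12 ± 0.07 in LPS+RSV against LPS (adjusted p = 0.394), or -0.02 with the cell division score as a covariate. USP30, which opposes the removal of damaged mitochondria, was the USP gene of lowest p below control in LPS, at -0.17 ± 0.08 (adjusted p = 0.61). Its LPS arrays read 6.75, 6.68, 7.08, 6.81 and 6.95 and its control arrays 6.95 to 7.14, with LPS replicate 3 inside the control range, and without LPS replicates 1 and 2 the difference was -0.08.

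For ISG15, an interferon-induced modifier, 3 enzymes were among the members. UBA7 is its E1, UBE2L6 its E2 and USP18 the protease that removes it. UBA7 differed by 0.07 ± 0.09 in LPS against control (limma adjusted p = 0.906), and its arrays ran from 5.43 to 5.89. UBE2L6 read 6.00, 5.96, 5.87, 5.91 and 5.90 in control, 6.37, 5.61, 6.05, 6.06 and 6.33 in LPS, and 6.28, 6.10, 5.99, 6.09 and 6.39 in LPS+RSV. Its control arrays were tight and 4 of 5 LPS arrays lay above them, with LPS replicate 2 below. The differences were 0.16 ± 0.12 in LPS (adjusted p = 0.817; 0.08 without LPS replicate 1, 0.27 without replicate 2 and 0.09 without replicate 5) and 0.24 ± 0.12 in LPS+RSV against control (adjusted p = 0.482). USP18 had means of 7.31 ± 0.14, 7.29 ± 0.20 and 7.34 ± 0.16 (SD, n = 5 each) and differed by -0.01 ± 0.10 in LPS against control (adjusted p = 0.989). None of the 3 passed the test in any comparison, and 12 tested genes of class I antigen processing and the interferon response had medians of 0.03, 0.02 and 0.02 in the order LPS minus control, LPS+RSV minus LPS and LPS+RSV minus control.

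Averaged over a class, the arrays of the 3 groups overlapped in every class. For each array the log2 deviation of every tested member from its mean over 15 arrays was averaged. The USP class read 0.07, 0.12, 0.01, 0.02 and -0.06 in control, 0.04, 0.05, -0.02, 0.06 and 0.07 in LPS, and -0.23, 0.04, 0.01, -0.07 and -0.10 in LPS+RSV. The E1 class of 4 genes read -0.47 in LPS+RSV replicate 1 and between -0.13 and 0.12 on the other 14 arrays. Its LPS+RSV replicates 3, 4 and 5, at -0.03, -0.10 and -0.13, also lay below every control and LPS array, while replicate 2 read 0.08. LPS+RSV replicate 1 was the lowest of its group for 31 of 70 members, and control replicate 5, whose cell division score was the lowest, for 32. The same arrays were the highest of their groups for 15 and 9 members. These counts were not made over all genes, so they are not read as a trait of the members. The part of proliferation and of these arrays in the differences was not tested beyond the refits given beside them.

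**Figure D3:**
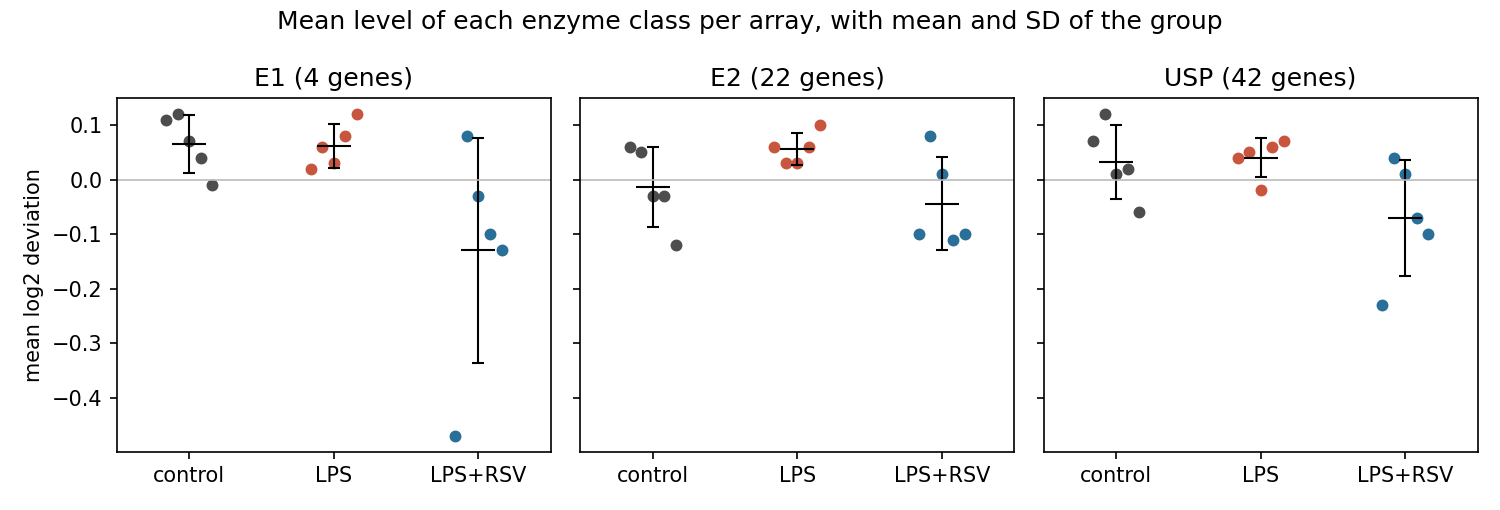
Mean log2 deviation of the tested E1 (4), E2 (22) and USP (42) genes on each array, with the group mean and SD as bars. LPS+RSV replicate 1 is the low point of the E1 panel at -0.47 and of the USP panel at -0.23. In the E1 panel LPS+RSV replicates 3, 4 and 5 also lie below every control and LPS array, and replicate 2 lies among them. In the USP panel LPS+RSV replicates 4 and 5 lie below every control and LPS array, and replicates 2 and 3 lie among them.

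Within groups, some members followed the cell division score of the array. The slope of each gene on the cell division score, with group means in the model, was past an adjusted p of 0.05 for 14 of 70 members, or 20.0%. That share was not above the background of 24% of all genes. Of the 14, 13 rose with the score, 18.6% of members against 14.2% of all genes, and 1 fell, USP54, where 9.76% of all genes fell. Score and members come from the same arrays, and the relation was looked for after the data were seen. Without control replicate 5 or without LPS+RSV replicate 2 the 14 became 7, where 19.6% and 16.3% of all genes were called, and with replicate number as a block 8 (21% of all genes). Called in all 25 alternatives were UBE2T, USP13, USP37, USP45, USP1 and PSMC3IP. The others were USP49, UBE2K, UBE2N, USP39, UBA1, USP46 and UBE2V1, with slopes of 0.14 to 0.28, and USP54 at -0.22.

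UBE2T is the E2 of the Fanconi anaemia pathway, which tags FANCD2 at stalled replication forks. Its slope was 1.12 ± 0.06 log2 units per unit of score (limma adjusted p = 2.93e-09). It read 8.54, 8.52, 7.68, 7.57 and 6.75 in control, 8.16, 8.12, 8.01, 8.83 and 9.13 in LPS, and 7.53, 8.55, 7.84, 7.32 and 6.87 in LPS+RSV. The range within each group exceeded any difference between groups, and in control and LPS the order of arrays was that of the score, which was 0.50, 0.49, -0.17, -0.37 and -1.05 over the control arrays. LPS minus control was 0.64 ± 0.35 (adjusted p = 0.706) and LPS+RSV minus LPS -0.83 ± 0.35 (adjusted p = 0.231). With the score as a covariate these were 0.01 and 0.02, and the first was 0.37 without control replicate 5.

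USP1 takes the same mark off FANCD2 and off PCNA. It rose with the score by 0.63 ± 0.12 (limma adjusted p = 0.000861). It read 8.96, 9.09, 8.62, 8.64 and 8.39 in control, 8.82, 8.83, 8.63, 9.37 and 9.39 in LPS, and 7.47, 9.07, 8.60, 8.49 and 8.15 in LPS+RSV. LPS replicates 4 and 5, with scores of 0.87 and 1.02, were its highest arrays, and LPS+RSV replicate 1 was its lowest. LPS+RSV minus LPS was -0.65 ± 0.24 (adjusted p = 0.186). It was -0.43 without LPS+RSV replicate 1 and -0.17 with the score as a covariate.

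USP13, another protease of this family, rose with the score by 0.92 ± 0.06 (limma adjusted p = 4.29e-08). It read 7.60, 7.56, 6.75, 6.68 and 6.18 in control, 7.01, 6.73, 6.86, 7.68 and 7.75 in LPS, and 6.34, 7.52, 6.96, 6.74 and 6.41 in LPS+RSV. Its highest and lowest control arrays were those of UBE2T, and LPS+RSV replicate 2 was the highest of its group for both. USP37, which spares cyclin A from degradation, rose by 0.32 ± 0.05 and USP45, a protease of DNA repair, by 0.42 ± 0.07. USP2, by contrast, had a slope of -0.15 ± 0.08 (adjusted p = 0.214).

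**Figure D4:**
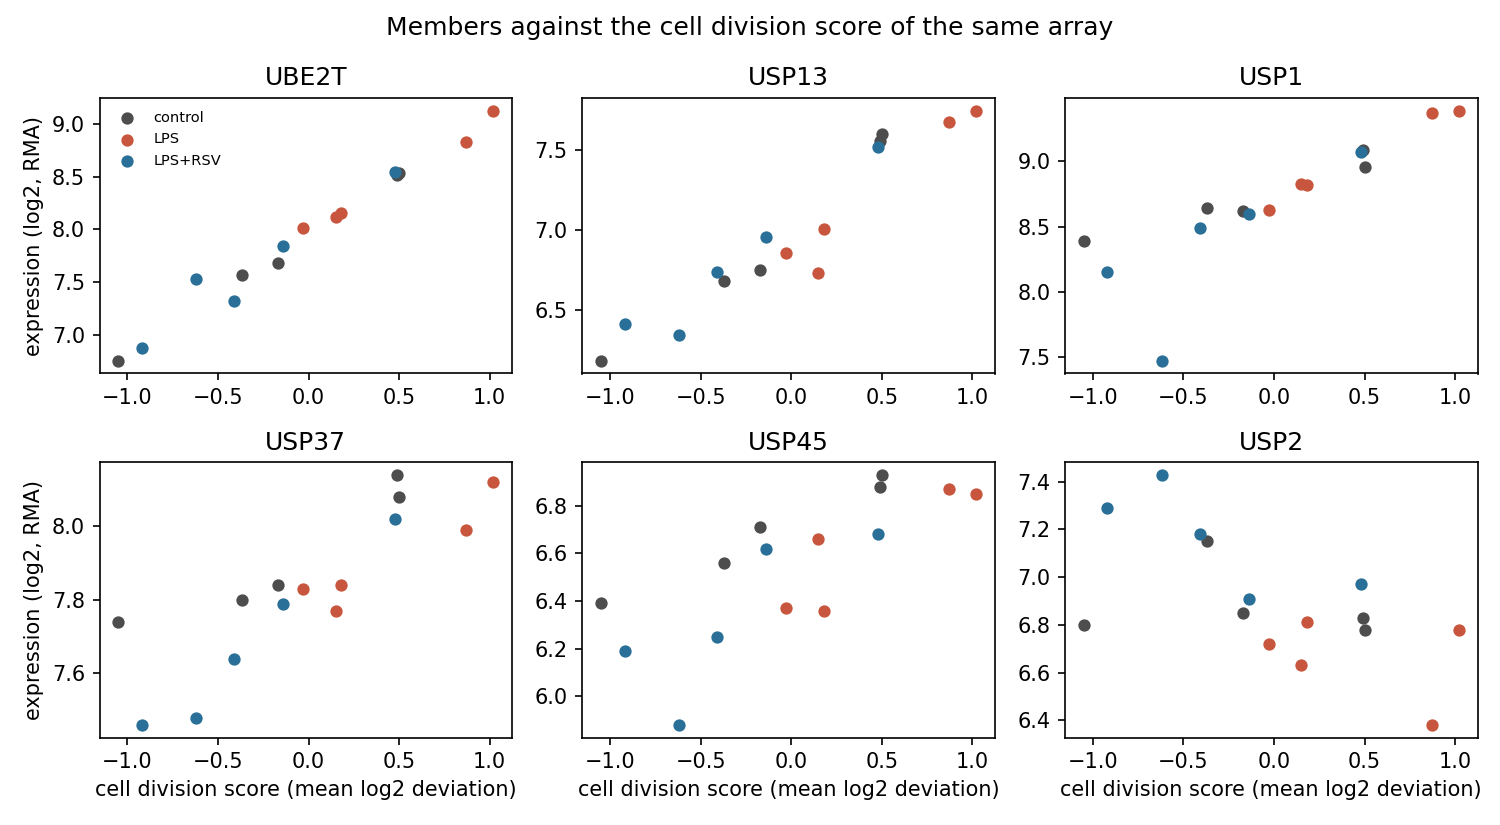
Log2 expression of 6 members against the cell division score (mean log2 deviation of 34 proliferation genes), 1 point per array, coloured by group. UBE2T and USP13 climb with the score in every group, with slopes of 1.12 and 0.92, USP37, USP45 and USP1 climb less steeply, and the LPS+RSV points of USP2 (6.91 to 7.43) all lie above its LPS points (6.38 to 6.81).

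Promoter sequences of the 3 steepest of these genes that have an entry in the RefSeq table (GRCh38.p14) show whether letters common in cell cycle promoters occur there, and that of USP2 is given for contrast. Each is the 250 bases upstream of the annotated start, 5′ to 3′ on the strand of the gene. Searched on both strands were CCAAT, the letters of the factor NF-Y, the cell cycle homology region (CHR, TTTGAA or TTTAAA) and the core of the antioxidant response element (TGACNNNGC). A match of one motif was allowed to overlap a match of another. Capitals mark the matches to any of these, which read reversed and complemented when they lie on the other strand.
UBE2T, chr1:202341937-202342186, minus strand: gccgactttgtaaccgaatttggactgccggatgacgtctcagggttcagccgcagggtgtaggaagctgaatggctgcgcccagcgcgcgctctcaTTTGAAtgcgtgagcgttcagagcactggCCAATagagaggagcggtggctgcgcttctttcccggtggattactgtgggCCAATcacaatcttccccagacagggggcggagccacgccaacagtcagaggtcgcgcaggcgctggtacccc
USP1, chr1:62436145-62436394, plus strand: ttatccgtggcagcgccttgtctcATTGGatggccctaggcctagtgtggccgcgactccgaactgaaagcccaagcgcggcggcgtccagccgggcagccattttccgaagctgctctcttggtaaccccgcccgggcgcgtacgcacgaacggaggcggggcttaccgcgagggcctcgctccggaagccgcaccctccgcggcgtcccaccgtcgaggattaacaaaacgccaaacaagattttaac
USP13, chr3:179652790-179653039, plus strand: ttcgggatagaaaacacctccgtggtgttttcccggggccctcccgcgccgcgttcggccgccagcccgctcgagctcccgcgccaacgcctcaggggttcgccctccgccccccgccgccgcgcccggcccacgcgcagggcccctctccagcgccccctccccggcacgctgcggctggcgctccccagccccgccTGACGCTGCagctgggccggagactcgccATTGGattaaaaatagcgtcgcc
USP2, chr11:119364209-119364458, minus strand: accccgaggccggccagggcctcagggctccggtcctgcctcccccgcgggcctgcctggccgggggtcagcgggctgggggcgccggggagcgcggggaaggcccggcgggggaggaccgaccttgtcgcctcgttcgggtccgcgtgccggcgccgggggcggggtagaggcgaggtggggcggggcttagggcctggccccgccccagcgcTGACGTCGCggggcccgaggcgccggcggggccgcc

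UBE2T held a CHR match 153 bases and CCAAT 124 and 73 bases before its start. USP1 held CCAAT on the other strand 226 bases before the start, and USP13 23 bases before it. USP13 and USP2 each held the antioxidant core, 52 and 36 bases before the start, and neither held a CHR match. USP2 held no CCAAT in this window. Over the 58 members with a promoter in the table, 27.6% held CCAAT, 10.3% a CHR match and 10.3% the antioxidant core, where 33%, 22.1% and 11% of 27305 promoters of the same length did. Of 13 members called for the slope, in either direction, that had an entry, 6 held CCAAT (46.2%), 3 a CHR match (23.1%) and 1 both. Of all promoters 7.85% held both. The 6 with CCAAT included USP54, which fell with the score. USP37 had no entry. A match is a description of letters, and binding was not measured.

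The rest of the ubiquitin system was read from lists of genes that are not members. For 14 tested cullin RING and F-box ligase genes, 12 lay lower and 2 higher in LPS+RSV against LPS, with a median of -0.14. Of all genes 47.9% lay lower in this comparison, with a median of 0.01. For 12 genes of proteasome assembly and regulation the medians were 0.06 for LPS minus control and -0.12 for LPS+RSV minus LPS, with a lowest limma adjusted p of 0.0667. For 22 deubiquitinases outside the USP family, 15 lay lower in LPS+RSV against LPS, with a median of -0.10 and a lowest adjusted p of 0.0999. Slopes on the cell division score were called for 4 of the 14 cullin RING and F-box genes, all rising. Among the 22 deubiquitinases 5 rose and 2 fell with the score, where 14.2% and 9.76% of all genes did. In LPS against control and then LPS+RSV against LPS, the 10 ubiquitin and ubiquitin-like precursors had medians of 0.00 and 0.04, 14 genes of the p97 segregase and its cofactors 0.01 and -0.01, 19 other ligases 0.01 and -0.05, and 10 other E1 and E2 type enzymes 0.00 and -0.10. None of these lists had a called member in any of the 3 comparisons. Of 15 genes of the anaphase-promoting complex and its regulators, 7 rose and 1 fell with the cell division score, where 14.2% and 9.76% of all genes did, and their medians were 0.03 for LPS minus control and -0.06 for LPS+RSV minus LPS. The 34 cell division genes had medians of 0.58, -0.74 and -0.17 in the 3 comparisons with 0 called.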

How the data were processed

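The deposited table held log2 expression values, made by the authors with RMA per the submitters' processing notes; the version, the array's genome build and any batch are not given in the sources used here. It had 53617 rows, of which 16098 carried 1 gene symbol from the platform annotation (14884 symbols) and 37519 are unnamed here. All 15 arrays entered 1 model of 3 group means with limma 3.58.1 under R 4.3.3 (lmFit, then eBayes without trend or robust options), fitted to 11804 genes above the 40th percentile of rows on at least 5 of 15 arrays. Adjusted p-values are limma's with Benjamini-Hochberg over all 11804 genes of a comparison, called under 0.05. No set test was run, and lists are described by counts and medians. Confidence intervals are 95%. The number of arrays limits the precision.

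Named were called members, the member of lowest p in each class and direction, and 12 fixed members (of 36, the others being unnamed here), except where the text says otherwise; members named for the slope are those called. The members and lists were chosen with earlier results of these data known. Alternatives covered the filter, rows per gene, normalization, moderation, array weights, the groups fitted, a block for replicate number, and leaving out each array. Chosen after seeing the data were the slope on the cell division score, counts at an unadjusted p, that score as a covariate, and leaving out LPS replicates 1 and 2. The scripts were tested on simulated data.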

Additional observations from a re-analysis of the deposited data

Results flagged for a closer look

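In 28 of the members named here, each of the 84 groups of 5 arrays was searched for an array set apart from the other 4. The measure was Dixon's ratio, which chance exceeds in about 1 of 20 groups, and 6 such arrays were found. LPS+RSV replicate 1 was the array in 4 of them: UBA6 at 7.74 with the others at 8.75 to 9.02, USP38 at 7.61 with the others at 8.0 to 8.16, USP30 at 6.88 with the others at 7.03 to 7.06, and UBE2QL1 at 5.91, here above the others at 5.61 to 5.69. PSMC3IP read 5.42 in LPS+RSV replicate 5, below the others at 5.81 to 5.92. USP2 read 7.15 in control replicate 4, above the others at 6.78 to 6.85. Members outside the 28 were not searched. Among these, LPS+RSV replicate 1 read 6.80 for USP15, with the others at 7.89 to 8.10. It read 8.49 for USP47, with the others at 9.15 to 9.38.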

How the results depend on the processing

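Over 27 alternatives, 0 members were called when control was compared with LPS or with LPS+RSV. Between LPS+RSV and LPS the called count was 0 apart from a range of 0 to 1 when single arrays were left out. USP2 was the 1, without LPS+RSV replicate 2, where 1.03% of all genes were called. Counts at an unadjusted limma p under 0.05 moved more. In LPS against control the 2 lower members became 1 with the 60th percentile filter, 1 with cyclic loess, 9 with the cell division score as a covariate (7.6% of all genes), 1 without LPS replicates 1 and 2, and 1 to 3 with single arrays left out; the 3 higher became 5 with cyclic loess, 8 with array weights (7.11% of all genes), 1 with the covariate (8.52%), and 1 to 5 with single arrays left out. In LPS+RSV against LPS the 20 lower (10.5% of all genes) became 6 with the covariate (5.87%), 12 without LPS replicates 1 and 2 (7.38%), and 15 to 23 with single arrays left out; the 3 higher became 5 with the covariate (5.79% of all genes) and 2 to 4 with single arrays left out. In LPS+RSV against control the 14 lower became 8 with array weights (3.8% of all genes), 9 in a fit to only those groups (4.33%), and 7 to 18 with single arrays left out; the 1 higher became 0 with the mean of all rows or array weights, 2 with repeated quantile normalization, cyclic loess or only those groups, 3 without LPS replicates 1 and 2, and 0 to 3 with single arrays left out. The 14 slope calls became 7 to 20 with single arrays left out. They were 7 without control replicate 5 (19.6% of all genes) or LPS+RSV replicate 2 (16.3%), and 20 without LPS+RSV replicate 1 (28.1%). Whether the replicate numbers pair the arrays is not stated and was not tested. Deviations of same-numbered arrays correlated between -0.54 and 0.71, and arrays of unlike number were not compared. Cell division scores of replicates 2 to 5 were 0.49, -0.17, -0.37 and -1.05 in control and 0.48, -0.14, -0.41 and -0.92 in LPS+RSV. Replicate 1 read 0.50 and -0.62 there, and LPS replicates 1 to 5 read 0.18, 0.15, -0.03, 0.87 and 1.02. With the replicate number as a block, 0 members were called in each comparison, 0 rather than 2 were lower in LPS against control, 2 rather than 1 higher in LPS+RSV against control, and the slope calls were 8. Except where the setting itself removes arrays or genes, the cause was not tested. Of 1560 values of single members recomputed, 1464 kept direction and side of the threshold, 35 changed sign with neither value past it, 60 lost a call, all of slopes, and 1 gained one. The depth of signal limits what can be read of members near the filter, such as USP17L10, USP6, UBE2QL1 and UBA7.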
